A study of Mus musculus with 2 samples.

Results

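The intracellular lipid carriers Fabp3, Fabp4, Fabp5 and Fabp7 and the acyl-CoA binding protein Dbi were followed through the cell types of mouse embryonic hearts. These 5 of the 31053 genes in the deposited tables were matched by symbol, and all 5 were found. They were chosen by their levels in the gated cell types and the ratios of those levels between the libraries, so everything below describes these libraries and nothing is tested. Hearts were taken at E12.5, a day of mid-gestation when valves and chamber walls form, dissociated with TrypLE, an enzyme mix that releases single cells, and profiled with 10X Genomics Chromium droplets. The mutant library came from hearts of genotype Tbx18-Cre; Prmt1 fl/fl;YFP/+. The control library came from Tbx18-Cre; YFP/+ hearts, so both carry the Cre driver and the YFP allele, and they differ in the floxed alleles of Prmt1, the main asymmetric arginine methyltransferase. Tbx18-Cre acts in the epicardium and in cells descended from it, and Tbx18 is also transcribed in some heart muscle cells. There was 1 library per genotype. How many embryos went into each library, and whether YFP-positive cells were sorted, is not stated in the labels.

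Fatty acid binding proteins hold long-chain fatty acids in the cytoplasm and carry them between membranes, mitochondria and the nucleus. Fabp3 is the heart and muscle form, Fabp4 the form of adipocytes, macrophages and capillary endothelium, Fabp5 a broadly made epidermal form that endothelium also makes, and Fabp7 the brain form, found in radial glia and in glia of the neural crest. Dbi, also called acyl-CoA binding protein, holds acyl-CoA esters, the activated form in which fatty acids are burned or built into lipids, and peptides cut from it act on neurotransmitter receptors.

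In GRCm38 (GENCODE M21) Fabp3 (ENSMUSG00000028773) lies at chr4:130308595-130315463 on the plus strand, Fabp7 (ENSMUSG00000019874) at chr10:57784881-57788450 on the plus strand and Dbi (ENSMUSG00000026385) at chr1:120113280-120121078 on the minus strand. Fabp5 (ENSMUSG00000027533) at chr3:10012548-10016607 on the plus strand and Fabp4 (ENSMUSG00000062515) at chr3:10204088-10208576 on the minus strand are neighbours, 187480 bases apart, with 4 protein-coding gene models between them that include the family members Fabp9 and Pmp2. Processed pseudogenes resemble 3 of the members. Fabp3-ps1 matches 402 bases of the Fabp3 transcript at 99.3% identity, 5 models match the Fabp5 transcript over 336 to 409 bases at 93.6% to 98.3%, and Gm12222 matches 261 bases of Dbi at 93.9%. None of these 7 copies is in the gene list of the files. The last 238 bases of the Fabp3 transcript, at least 487 of Fabp5 and the last 180 of Dbi, towards the end from which such kits count, lie outside the matches.

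The promoter windows of Fabp3 and Dbi are shown because both genes had lower levels in the mutant library in most cell types. Each runs from 250 bases before to 50 bases after a start site (RefSeq, GRCm38.p6), Fabp3 at chr4:130308488-130308787 on the plus strand and the downstream of 2 listed Dbi starts at chr1:120120870-120121169 on the minus strand. Of the 5 members, 3 had an entry in this table. Capitals mark matches on either strand to the TATA box (TATAAA), the CCAAT box (CCAAT), the GC box (GGGCGG), the E-box (CANNTG), the nuclear receptor core (AGGTCA), the MEF2 motif with its 4 central bases free, or the TEAD motif (CATTCC).
Fabp3: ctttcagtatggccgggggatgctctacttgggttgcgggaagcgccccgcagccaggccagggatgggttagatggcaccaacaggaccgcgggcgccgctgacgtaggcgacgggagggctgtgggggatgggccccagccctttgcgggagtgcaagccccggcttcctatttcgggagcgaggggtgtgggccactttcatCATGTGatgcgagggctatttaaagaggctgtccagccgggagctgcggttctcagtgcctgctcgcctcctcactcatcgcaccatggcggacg
Dbi: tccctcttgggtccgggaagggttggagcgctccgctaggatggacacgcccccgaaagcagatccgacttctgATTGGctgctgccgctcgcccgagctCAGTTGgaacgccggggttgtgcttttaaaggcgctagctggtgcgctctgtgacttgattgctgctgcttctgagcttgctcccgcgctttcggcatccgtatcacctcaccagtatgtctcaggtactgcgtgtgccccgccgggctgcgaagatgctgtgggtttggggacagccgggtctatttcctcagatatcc
The Fabp3 window is 65.0% G or C and holds 1 match, the CANNTG sequence CATGTG with its first base at -45 from the start site. The Dbi window is 60.3% G or C and holds the reverse complement of CCAAT at -176 and the CANNTG sequence CAGTTG at -150. These matches do not overlap each other. Among 32817 windows of the same length, 72.3% hold CANNTG and 37.4% hold CCAAT. The TATA box is in 13.6% of windows, the GC box in 35.6%, the nuclear receptor core in 16.3%, the MEF2 motif in 3.69% and the TEAD motif in 14.7%, and their letters are in neither window shown. The window of the other listed Dbi start, chr1:120121047-120121346, overlaps the one shown. It holds the reverse complement of CCAAT at 2 and CANNTG matches at -196, -124 and 28 from that start. The GENCODE gene model of Dbi begins at chr1:120121078, inside both windows and upstream of the start shown. The CAGTTG match of the window shown therefore lies within that gene model.

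Cells were assigned to 11 types by marker genes, none of them a member. Cells that met the marker rule of more than 1 class, 322 in the mutant and 283 in the control library, were left out. The mutant library gave 227 atrial, 166 trabecular-type and 843 compact-type ventricular cardiomyocytes, 355 epicardial cells, 506 mesenchymal cells with a UMI (unique molecular identifier) of Tcf21 and fewer than 2 cushion markers, 220 cushion mesenchymal cells, 30 outflow vessel wall cells, 76 endocardial cells, 204 other endothelial cells, 67 macrophages and 303 red cells. The control library gave 329, 125, 1176, 203, 298, 132, 44, 46, 161, 68 and 160 cells of the same types. All cardiomyocytes together, those between the chamber rules included, were 1569 and 2009 cells, all mesenchymal cells 1339 and 789, and all endothelial cells 280 and 207. The defining markers were present in their types. For example, Upk3b stood at 620 and 864 CPM (UMIs of the gene per 1000000 UMIs of the cell type) in epicardial cells of the mutant and control library, Myl2 at 7247 and 7530 in compact-type cardiomyocytes, and Msx1 at 1217 and 725 in cushion cells. The outflow vessel wall markers differed between the libraries, with Eln at 156 CPM in the mutant and 866 in the control, so the gated cells differed in their own markers.

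Kept cells had a median of 4046 UMIs in the mutant library (4640 cells) and 5896.5 UMIs in the control (4100 cells), and 18 barcodes with at least 500 UMIs occurred in both. Mesenchymal cells were shallow, with medians of 2242 and 1927 UMIs, against 11860 and 10714 UMIs in cardiomyocytes. Prmt1 stood at 379 CPM in epicardial cells of the mutant library and 464 in those of the control, at 676 and 626 in mesenchymal cells and at 665 and 581 in endothelial cells. The counts come from transcript ends and the deleted exons are not stated in the labels, so these levels check nothing about the deletion. Xist was higher in the mutant library (139 against 13.3 CPM in mesenchymal cells), and 4 Y-linked genes were lower in sum (16.7 against 53.1), so the sex makeup of the embryos and the genotype cannot be told apart. Haemoglobin took 0.0384% to 0.381% of UMIs in the types other than red cells of the mutant library and 0.0151% to 0.134% in those of the control. Summed levels of 6 immediate early genes, which respond to dissociation, were lower in mutant epicardial cells (807 against 1750 CPM in the control), Tcf21 mesenchymal cells (1460 against 2067) and macrophages (1365 against 2188). They were higher in mutant outflow vessel wall (3658 against 1933), endocardial (2283 against 1296) and other endothelial cells (1570 against 1089), and their part in the ratios below was not tested. Only the control matrix held empty droplets, and the pooled RNA of those with at most 100 UMIs gives the free RNA of that library.

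Levels (CPM) were taken from the summed UMIs of a cell type, with exact Poisson 95% intervals, and ratios are log2 of the mutant over the control level after adding 10 to each. Ratios in percent are plain ratios with exact conditional binomial 95% intervals. All intervals cover counting error only and not differences between cells or between embryos. A gene counted as measured in a cell type at a mean of 10 CPM and 30 UMIs over both libraries, and a ratio of 1.5-fold served as the mark of size. The next sentences set the members against all measured genes, and since the members were named with these ratios known, nothing is read from an excess.

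Among all cardiomyocytes 1 of 3 measured members, Fabp5, was higher in the mutant past 1.5-fold, as were 0.373% of 5358 genes, and none was lower (0.355% of genes). Fabp5 also passed it in trabecular-type cardiomyocytes (2.79% of genes higher, 0.57% lower) and compact-type ones (0.503% and 0.329%), and no member did in atrial ones (0.686% and 0.492%). Among all mesenchymal cells 2 of 4 members, Fabp3 and Dbi, were lower past 1.5-fold, as were 1.22% of 6570 genes, and Fabp5 was higher (0.852%). The same 3 passed it in Tcf21 mesenchymal cells (3.46% of genes lower, 4.16% higher). In cushion cells Dbi alone did (7.9% lower, 7.17% higher), in epicardial cells Fabp3 alone, on the lower side (5.64% lower, 2.19% higher), and in outflow vessel wall cells Fabp3 was lower (14.7%) and Fabp5 higher (14.8%). Of 4 measured members in all endothelial cells, Fabp4 was lower past 1.5-fold (1.29% of 6112 genes) and Fabp3, on 28 and 5 UMIs, higher (6.63%). Fabp4 was lower in other endothelial cells (5.56% of genes lower, 4.57% higher) and higher in endocardial cells (17% higher, 4.24% lower). Fabp5 was higher in macrophages (12.1% higher, 10.1% lower) and in red cells (21.9% higher), where Fabp3 was lower (0.652%). In red cells the median log2 ratio of all measured genes was itself 0.35. Haemoglobin took 75.7% of their UMIs in the mutant and 81.6% in the control, and its part in these ratios was not tested. In the other types that median lay between -0.042 and 0.059.

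**Figure D1:**
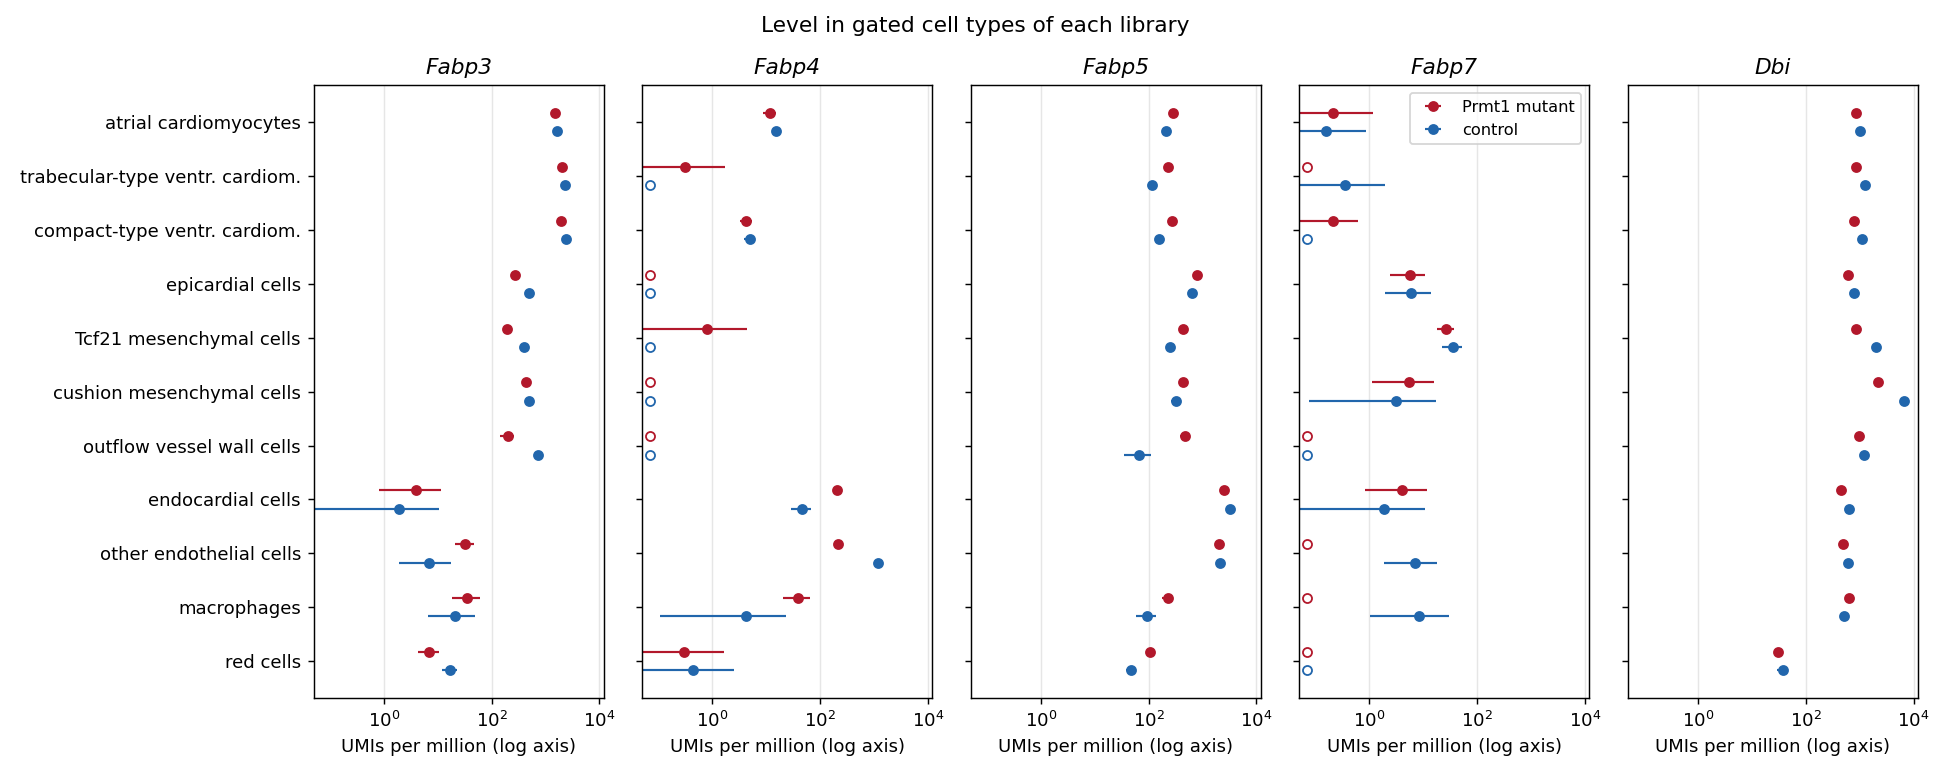
Level of each gene (CPM, log axis) in 11 gated cell types of the Prmt1 mutant library (red, upper) and the control library (blue, lower), with exact Poisson 95% intervals; open circles near the left edge mark types with 0 UMIs. Fabp3 is highest in the 3 cardiomyocyte types, Fabp4 and Fabp5 in endothelial cells, Fabp7 in Tcf21 mesenchymal cells and Dbi in cushion mesenchymal cells.

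Fabp3 marked heart muscle. Its level was 1993 CPM in trabecular-type and 1952 in compact-type cardiomyocytes of the mutant library, whose intervals overlap, and 1516 in atrial ones, which lay below both. The control had the same break, with 2335 in trabecular-type, 2375 in compact-type and 1644 in atrial cardiomyocytes. In each of these types the mutant interval lay below the control interval. The mutant level was 92.2% of control in atrial (89.5% to 95.0%), 85.4% in trabecular-type (82.5% to 88.3%) and 82.2% in compact-type cardiomyocytes (80.9% to 83.5%). Over all cardiomyocytes it was 1849 CPM in the mutant and 2159 in the control, 85.6% of control (84.7% to 86.6%). The median cell had 1832 CPM in the mutant and 2175 in the control, with quartiles of 1212 and 2589 against 1484 and 2990, so the cells of both libraries overlapped widely. A Fabp3 UMI was found in 98.7% of mutant and 99.2% of control cardiomyocytes. Thinned to 1000 UMIs per cell, these shares were 79.9% and 84.3%, against 1.07% and 0.483% in endothelial cells, a type with little Fabp3 (median depths of 3359 and 2595 UMIs, against 11860 and 10714). In the 39 mutant and 92 control cardiomyocytes of under 3000 UMIs the levels lay further apart, at 1320 and 2469 CPM.

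Fabp3 was also present, at lower levels, in epicardial and mesenchymal cells. Epicardial cells had 274 CPM in the mutant library and 491 in the control, 55.8% of control (48.5% to 64.2%). Tcf21 mesenchymal cells had 191 in the mutant and 395 in the control, 48.5% (40.5% to 58.0%). Cushion cells had 427 and 487, 87.7%, with an interval that includes 100% (71.4% to 108%). Outflow vessel wall cells, only 30 and 44 in number and unlike in their markers, had 198 in the mutant and 726 in the control. Of 8 types with at least 30 Fabp3 UMIs over both libraries, all 8 had the lower level in the mutant, and in 7 the interval of the ratio lay below 100%. In the other 3, both endothelial types and macrophages, Fabp3 stood at 3.94 to 35.3 CPM in the mutant and at 1.91 to 20.8 in the control, on 25 UMIs or fewer each, and 3 cells held 20 of the 25 in mutant other endothelial cells.

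Muscle RNA in these cells was measured beside it. Per 100 UMIs of the 12 cardiomyocyte markers there were 4.96 Fabp3 UMIs in mutant and 5.66 in control cardiomyocytes. In epicardial cells that number was 39.5 in the mutant and 71.6 in the control, and in mesenchymal cells 55.7 and 95.2. The summed cardiomyocyte markers themselves stood close together in the libraries, at 693 and 686 CPM in epicardial and 557 and 558 in mesenchymal cells. In the control, Fabp3 stood at 1292 CPM in empty droplets. Control epicardial cells held 38.0% of that level and 3.15% of the empty-droplet level of the cardiomyocyte markers. Control endocardial cells held 0.147% and 2.27%, and other endothelial cells 0.536% and 1.15%. The part of free RNA in these levels was not tested. In mesenchymal cells the lower level was seen in cells of 1000 to under 3000 UMIs (379 in the mutant against 736 in the control) and in cells of 3000 to under 6000 UMIs (255 against 363), but not in the 52 mutant and 35 control cells of at least 6000 UMIs (186 against 141).

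**Figure D2:**
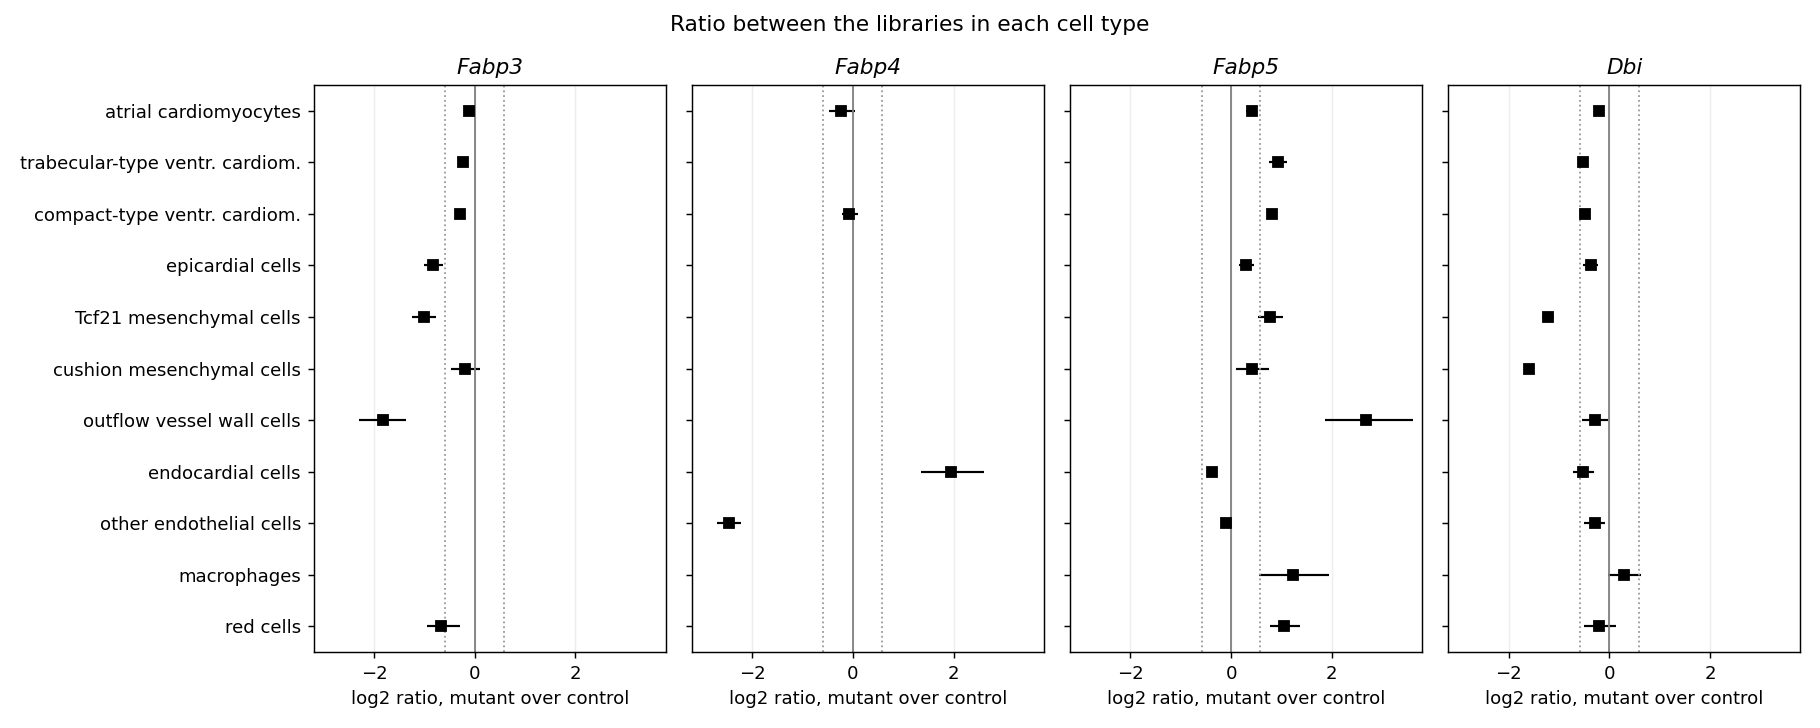
Ratio of the mutant to the control level (log2 after adding 10 CPM) of 4 genes in each cell type with at least 30 UMIs over both libraries; bars are exact 95% intervals for counting error, and dotted lines mark 1.5-fold. Fabp3 lies left of 0 in 8 of 8 types, Dbi in 10 of 11, Fabp5 right of 0 in 9 of 11, and Fabp4 on both sides in the endothelial types.

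Fabp4 was an endothelial gene in these hearts and was carried by a minority of the cells. All endothelial cells together had 208 CPM in the mutant library (322 UMIs) and 650 in the control (717 UMIs), 32.0% of control (28.0% to 36.6%). That log2 ratio, -1.60 over summed UMIs, was -2.22 with equal weight per cell, -2.27 with cells thinned to 1000 UMIs and -0.87 in cells of at least 6000 UMIs. A Fabp4 UMI was found in 34 of 280 mutant endothelial cells (12.1%, exact binomial interval 8.56% to 16.6%) and in 43 of 207 control cells (20.8%, 15.5% to 26.9%). With cells thinned to 1000 UMIs the shares were 8.57% and 14.01%, with overlapping intervals. Mesenchymal cells, which should lack Fabp4, had it in 1 of 1339 mutant and in 0 of 789 control cells, which allows a share of cells with a UMI of up to 0.380% and says nothing of cells that make Fabp4 without one. Epicardial, cushion and outflow vessel wall cells had no Fabp4 UMI in either library. Atrial cardiomyocytes had 11.6 CPM in the mutant and 15.5 in the control, and compact-type ones 4.21 and 4.94, with both ratio intervals including 100%. All cardiomyocytes together had 5.84 CPM in the mutant (160 UMIs) and 8.67 in the control (271 UMIs), 67.4% of control (55.1% to 82.3%). Those levels lie below the 10 CPM at which a gene counted as measured. In macrophages, which make Fabp4 in adult tissues, 1 cell in each library had a UMI, and that mutant cell held 13.

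The endothelial types differed in direction. Other endothelial cells had 211 CPM in the mutant and 1200 in the control, 17.6% of control (14.8% to 20.9%). Endocardial cells had 205 in the mutant and 45.7 in the control, 449% (291% to 721%). The endocardial value rested on few cells, since 3 of the 76 mutant cells held 149 of its 156 UMIs and 3 of the 46 control cells held 17 of 24. Given equal weight, the cells put the endocardial log2 ratio at -0.51, and thinned to 1000 UMIs they put it at -0.67. In other endothelial cells the top 3 cells held 55 of 166 UMIs in the mutant and 217 of 693 in the control.

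Cells with at least 5 Fabp4 UMIs, 16 in the mutant and 27 in the control, held 286 of 322 and 682 of 717 Fabp4 UMIs, at 1310 and 3912 CPM. The genes given next were picked with their values known and set such cells beside endothelial cells without a Fabp4 UMI. Cldn5, a tight junction protein of vessels, stood at 165 CPM in such cells of the mutant and 143 in those of the control, against 16.02 and 8.97 in cells without Fabp4. Gpihbp1, which anchors lipoprotein lipase on capillaries, stood at 68.7 and 80.3, against 5.06 and 17.9. Plvap, a protein of fenestrated and endocardial endothelium, was lower in the Fabp4 cells (77.9 and 22.9) than in the rest (321 and 276), and so was the endocardial gene Npr3 (9.16 and 0, against 79.2 and 78.9). Rbp7, a retinol binding gene, stood at 0 and 17.2, against 25.3 and 35.9, but at 108 and 101 in cells with any Fabp4 UMI. The endothelial markers Kdr and Cdh5 stood at 353 and 472 in the mutant Fabp4 cells and at 86.0 and 178 in the control ones. Without Fabp4 they stood at 97.8 and 154 in the mutant and at 78.9 and 124 in the control. The other endothelial markers went both ways. Tek (41.2 and 22.9, against 135 and 108), Emcn (330 and 327, against 449 and 551) and Egfl7 (802 and 746, against 1027 and 1109) were lower in the Fabp4 cells. Esam was higher (284 and 252, against 121 and 151). Pecam1 and Tie1 were higher in the Fabp4 cells of the mutant and lower in those of the control. Cd36, a fatty acid uptake receptor, had 5 UMIs in the mutant Fabp4 cells and 0 in the control ones. The group was cut by Fabp4 itself and its cells were somewhat deeper (medians of 5645 and 4259 UMIs, against 3082.5 and 2322.5), so these values describe the cells and test nothing.

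**Figure D3:**
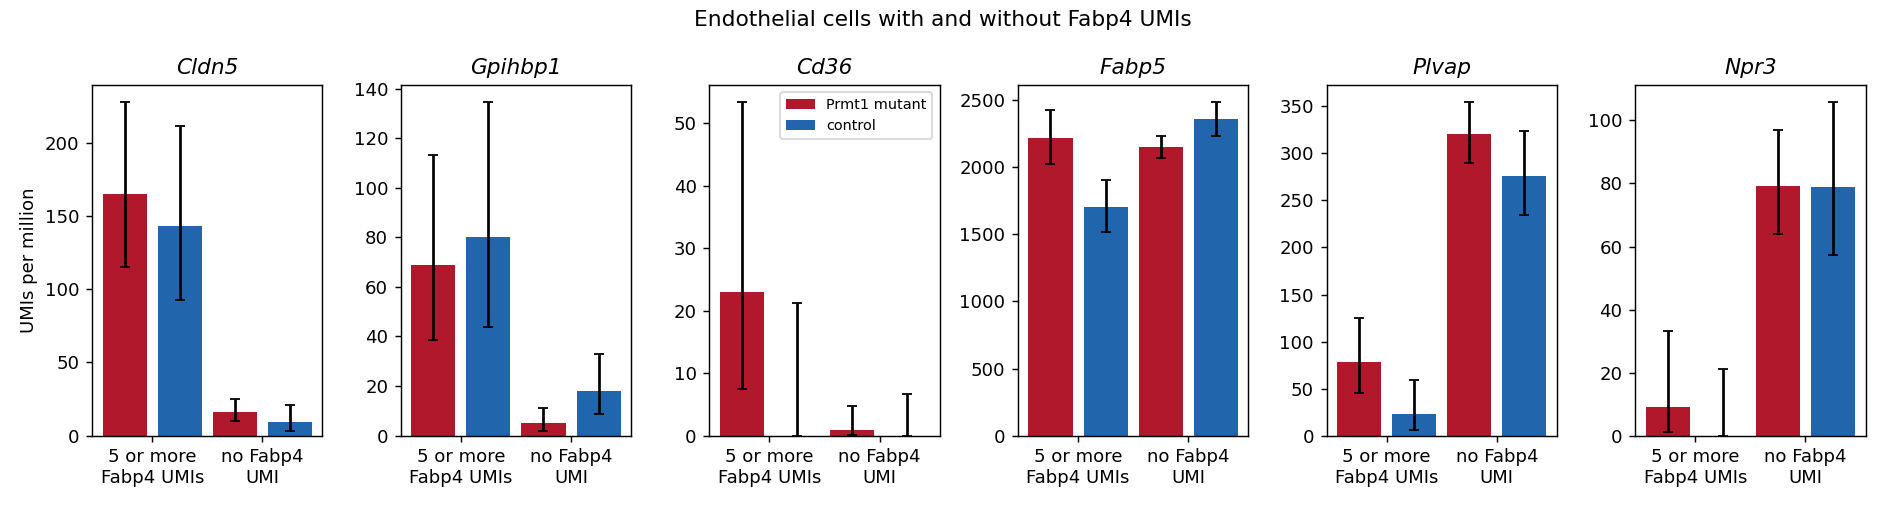
Levels (CPM, each panel from 0) of 6 genes in endothelial cells with at least 5 Fabp4 UMIs and in endothelial cells with none, in the Prmt1 mutant library (red, left bar of each pair) and the control library (blue, right bar), with exact Poisson 95% intervals. Cldn5 and Gpihbp1 are higher, and Plvap and Npr3 lower, in cells with Fabp4 in both libraries.

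Fabp5 had its highest level in endothelium too, but was found in nearly every endothelial cell and in all other types. Endocardial cells had 2494 CPM in the mutant and 3226 in the control, and other endothelial cells 1993 and 2132. Endocardial cells stood highest in both libraries, followed by other endothelial and then epicardial cells, with intervals clear of each other. A Fabp5 UMI was found in 89.6% of mutant and 88.4% of control endothelial cells, 72.1% and 71.5% with cells thinned to 1000 UMIs. Their level over all endothelial cells was 2239 in the mutant and 2653 in the control, 84.4% (80.3% to 88.7%), and in the control 3 cells held 916 of 2924 UMIs. The median endothelial cell had 1644 CPM in the mutant and 1633 in the control. With equal weight per cell the log2 ratio was -0.17, and -0.24 over summed UMIs.

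Outside endothelium Fabp5 was higher in the mutant library in 9 of 9 types, each with the interval of its ratio above 100%, and 6 of them passed 1.5-fold. Under other settings the log2 ratio fell to 0.40 in macrophages and 0.52 in Tcf21 mesenchymal cells, both short of 1.5-fold. In atrial cardiomyocytes it fell to 0.12. Compact-type cardiomyocytes had 275 CPM in the mutant and 153 in the control, 180% of control (171% to 189%). Trabecular-type ones had 226 and 114, 198% (174% to 226%), and atrial ones 282 and 210, 134% (124% to 145%). The median cardiomyocyte had 207 CPM in the mutant and 97.7 in the control. Thinned to 1000 UMIs, 20.5% of mutant cardiomyocytes had a Fabp5 UMI (18.5% to 22.5%), against 12.6% in the control (11.2% to 14.2%), and unthinned 81.8% and 64.8%. In red cells the thinned shares were 14.2% and 8.75%, with median depths of 8432 and 14460 UMIs. Control cardiomyocytes held less Fabp5 than empty droplets, at 63.0% of that level in atrial, 34.2% in trabecular-type and 45.9% in compact-type cells, and the part of free RNA in the cardiomyocyte levels was not tested. The direction was missing in the shallowest cardiomyocytes, 39 mutant and 92 control cells of under 3000 UMIs, at 179 and 183.

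Tcf21 mesenchymal cells had 430 CPM of Fabp5 in the mutant and 247 in the control, 174% (146% to 209%), and cushion cells 434 and 321, 135% (107% to 172%). Over all mesenchymal cells the level was 463 in the mutant and 271 in the control, 171% (155% to 188%), and the thinned share of cells with a UMI was 32.7% and 18.9%. In the control, Fabp5 stood at 333 CPM in empty droplets, above these control cells, and free RNA of the mutant library could not be measured, so its part in the mutant level was not tested. Epicardial cells had 780 in the mutant and 631 in the control, 124% (111% to 137%). Macrophages had 227 and 91.3 and red cells 108 and 46.5, on 77 and 22 and on 357 and 104 UMIs. The thinned share of macrophages with a UMI was 7.46% in the mutant and 8.82% in the control, with median depths of 4163 and 2689.5 UMIs. The highest ratio, in outflow vessel wall cells (472 in the mutant, 65.1 in the control), rested on 112 and 13 UMIs, of which 3 mutant cells held 80 and 1 of them 58.

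Fabp7 was close to the floor. Tcf21 mesenchymal cells had 33 UMIs in the mutant and 23 in the control, 26.4 and 35.5 CPM, with a ratio of 74.5% and an interval that includes 100% (42.4% to 133%). A UMI was found in 26 of 506 mutant and 19 of 298 control cells of this type. These 33 and 23 UMIs made up most of the 55 and 30 in all mesenchymal cells. Within mesenchymal cells Fabp7 lay mainly in those with no cushion marker, at 34.8 CPM in the mutant and 33.1 in the control, and stood at 5.10 and 6.73 in those with 3 or more. Every other type had at most 8 UMIs in a library. Empty droplets of the control held 20.5 CPM, and a difference between the libraries was not detectable at these counts.

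Dbi was found in all 11 types and was highest in cushion mesenchymal cells, the cells of the forming valves and septa. Cushion cells had 2164 CPM in the mutant (1202 UMIs) and 6554 in the control (2142 UMIs), 33.0% of control (30.7% to 35.5%). The median cushion cell had 1946 CPM in the mutant and 7302 in the control, with quartiles of 1029 and 3384 against 3219 and 10710, so the middle ranges of the libraries overlapped little. A Dbi UMI was found in 93.2% of mutant and 95.5% of control cushion cells, and in 82.7% and 89.4% with cells thinned to 1000 UMIs, where most cells hold a UMI and a share can hardly differ. Tcf21 mesenchymal cells had 858 CPM in the mutant and 2008 in the control, 42.7% (39.4% to 46.4%). Over all mesenchymal cells the level was 1468 in the mutant and 3720 in the control, 39.4% (38.1% to 40.8%). Empty droplets of the control held 1070 CPM of Dbi. Control cushion cells stood at 612% of that level and Tcf21 mesenchymal cells at 188%. The 3 cardiomyocyte types and outflow vessel wall cells lay between 94.1% and 117%. Epicardial cells stood at 73.7%, endocardial cells at 60.2%, other endothelial cells at 55.6%, macrophages at 47.7% and red cells at 3.47%. The part of free RNA in these Dbi levels was not tested.

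The lower level was seen along the whole range from Tcf21 to cushion cells. Mesenchymal cells with 0 cushion markers had 567 CPM of Dbi in the mutant and 1558 in the control, those with 1 marker 1523 and 4248, those with 2 markers 1915 and 5404, and those with 3 or more 1699 and 3773. In both libraries the level was lowest without cushion markers, and at each step the mutant interval lay below the control interval. The cushion marker Sox9 was lower in mutant cushion cells (169 against 355 CPM) and Msx1 higher (1217 against 725), and the part of this in the Dbi ratio was not tested. By depth, mesenchymal cells of under 3000 UMIs had 1636 in the mutant and 4694 in the control, those of 3000 to under 6000 UMIs 1399 and 2795, and those of at least 6000 UMIs 1064 and 1968, log2 ratios of -1.52, -0.99 and -0.88.

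**Figure D4:**
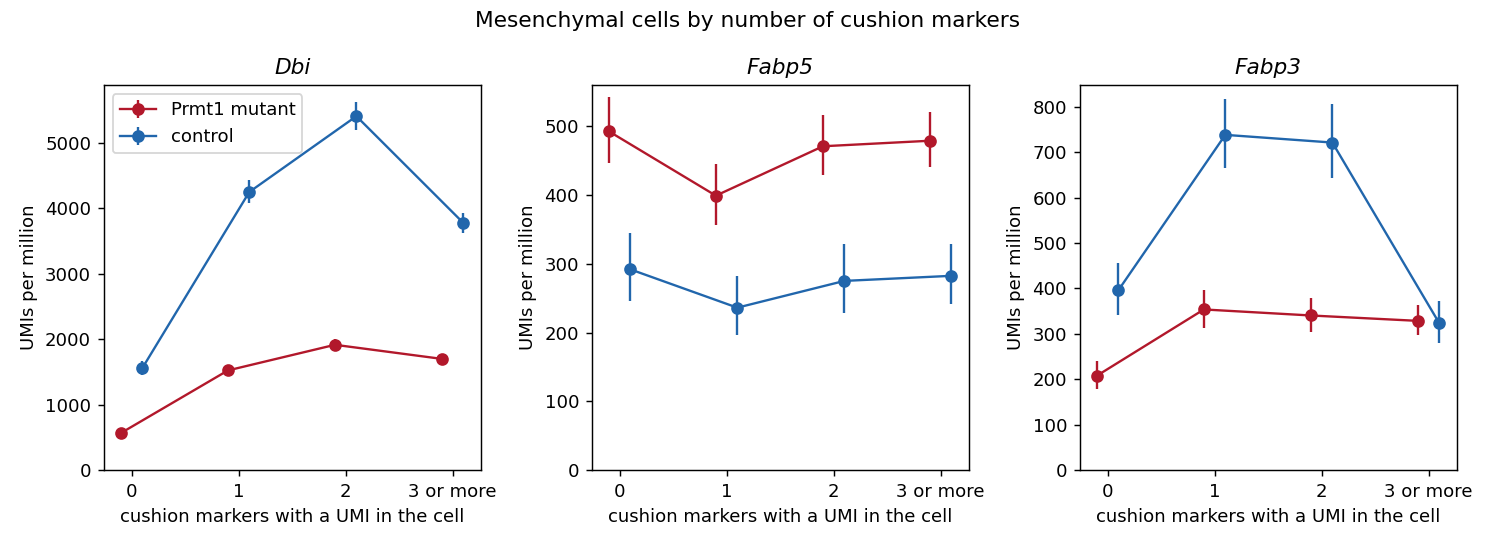
Levels (CPM, from 0) of Dbi, Fabp5 and Fabp3 in mesenchymal cells by the number of cushion markers with a UMI, in the Prmt1 mutant library (red) and the control library (blue), with exact Poisson 95% intervals. Dbi is lower in the mutant at all 4 steps (567 against 1558 CPM at 0 markers, 1699 against 3773 at 3 or more), Fabp5 higher at all 4, and Fabp3 lower except at 3 or more (329 and 323).

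Elsewhere Dbi differed less. Cardiomyocytes had 832 CPM in the mutant and 1105 in the control, 75.3% of control (74.0% to 76.5%), with 86.5% in atrial, 69.6% in trabecular-type and 71.9% in compact-type cells. Epicardial cells had 610 and 789, 77.3% (69.8% to 85.6%). Endothelial cells had 467 and 619, 75.5% (67.9% to 83.9%). Outflow vessel wall cells had 991 and 1212. Macrophages had 630 in the mutant and 511 in the control, and red cells 31.1 and 37.1, both with a ratio interval that includes 100%. Dbi was thus lower in the mutant in 10 of 11 types, with intervals below 100% in 9, and past 1.5-fold in Tcf21 and cushion mesenchymal cells. Few cells weighed heavily in endocardial and outflow vessel wall cells. Of the endocardial cells, 3 of 46 in the control held 196 of 338 Dbi UMIs, and 3 of 76 in the mutant held 86 of 341. Of the outflow vessel wall cells, 3 of 30 in the mutant held 121 of 235 Dbi UMIs, and 3 of 44 in the control held 82 of 242. Over the main and other settings the log2 ratio lay between -0.73 and -0.30 in epicardial and between -0.82 and -0.11 in outflow vessel wall cells. It lay between -0.81 and -0.18 in other endothelial and between -1.11 and -0.20 in red cells. In each of these types only the first value given is past 1.5-fold. In endocardial cells it lay between -0.53 and -0.094. No test of the difference between types was possible with 1 library per genotype. The order of types also differed between libraries, since Tcf21 mesenchymal cells stood next to cushion cells in the control, clear of the rest, but in the mutant stood beside atrial and trabecular-type cardiomyocytes with overlapping intervals. In cardiomyocytes of under 3000 UMIs the Dbi level was 871 in the mutant and 864 in the control.

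Patterns over the 22 levels of 11 types in 2 libraries gave each gene its nearest neighbours among 4862 genes. The Pearson correlation of log2 levels was highest with Fabp3 for Sfrp1, a Wnt-binding secreted protein (0.96), Fxyd1 and Atp1b1, which belong to the sodium pump (0.96 and 0.95), Pdk3, a kinase of pyruvate dehydrogenase (0.94), and Myl9 (0.93). With Fabp4 it was highest for Cldn5 (0.94), Fam167b, Gimap6, Ifi211 and Myct1, a protein of endothelium (the last 0.90). Fabp5 was closest to Ppp1r2, Plpp3, Npdc1, Rab4a and the angiopoietin receptor Tek (0.90 to 0.89). Dbi was closest to Saysd1, Scnm1, Srpk2, Hypk and Nxt1 (0.93 to 0.91), each highest in cushion cells. Fabp7 did not reach 50 CPM in any type and was not compared. Among the members the correlation was 0.69 for Fabp4 and Fabp5, 0.57 for Fabp3 and Dbi, and -0.55 for Fabp3 and Fabp4. The 22 values share libraries and depth, so these numbers only describe likeness.

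The other genes of fatty acid handling were 83 in 9 lists, of which 11 to 40 were measured in a given type. In all cardiomyocytes 38 were measured and none passed 1.5-fold in either direction, beside 0.373% of all genes higher and 0.355% lower. All 14 genes of beta oxidation were measured there, among them Etfb, which passes electrons from it (960 CPM in the mutant, 1023 in the control), Acadl, a long-chain acyl-CoA dehydrogenase (328 and 364), and Echs1 (258 and 272). The gatekeepers of the carnitine shuttle were near the floor, with Cpt1a at 1.39 and 1.92 and Cpt1b at 0.402 and 0.608. The median log2 ratio of the 38 genes was 0.022, against 0.021 for all measured genes.

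In all mesenchymal cells 32 of the 83 were measured and none passed 1.5-fold, beside 0.852% of all genes higher and 1.22% lower, with a median log2 ratio of -0.017 against -0.018 for all genes. Of the acyl-CoA binding relatives of Dbi, Acbd3 stood at 151 in the mutant and 157 in the control there and Acbd6 at 111 and 114, and the Dbi-binding protein Tspo at 154 and 136. Decr1, an auxiliary enzyme of beta oxidation, passed in Tcf21 mesenchymal cells (61.7 against 33.9), where 4.16% of all genes were higher and 3.46% lower. In cushion cells Etfa (70.2 against 39.8) and Acaa2 (61.2 against 36.7) passed, both with intervals that include 100%. There 7.17% of all genes were higher and 7.9% lower.

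Of the measured list genes, 4 of 24 passed 1.5-fold in endocardial cells, beside 17% of all genes higher and 4.24% lower. In other endothelial cells 4 of 21 did (4.57% of all genes higher, 5.56% lower), and in macrophages 3 of 11 (12.1% higher, 10.1% lower). All endothelial cells had 34 of the 83 genes measured, with Gpihbp1 lower (14.9 CPM in the mutant, 29.0 in the control) and the desaturase Scd2 higher (58.8 and 34.5). Of all genes measured there, 1.29% were lower past 1.5-fold and 6.63% higher. Gpihbp1 was also lower in other endothelial cells (15.3 and 41.6), as was Rbp7, a retinol binding relative of the family (21.6 and 39.8). In epicardial cells 1 of 31 passed, the lipid droplet protein Hilpda (23.0 in the mutant, 9.58 in the control, on 33 and 8 UMIs), beside 2.19% of all genes higher and 5.64% lower. Macrophages had Tspo higher (518 and 291) and Hilpda (61.8 and 104) and the lipid droplet coat protein Plin2 (121 and 195) lower. In endocardial cells the oxidation enzyme Hadhb (47.3 in the mutant, 22.9 in the control), Scd2 (85.5 and 40.0) and the lipogenic enzyme Acly (38.1 and 20.96) were higher and Acbd6 (97.3 and 152) lower. Acbd5, a peroxisomal acyl-CoA binding protein (34.4 and 13.9), and Eci1 (54.7 and 32.9) were higher in other endothelial cells. Tspo was lower in outflow vessel wall cells (67.5 and 135), where 14.7% of all genes were lower and 14.8% higher. Most of these list genes rest on fewer than 50 UMIs a library, and the intervals of Acly, Eci1, Rbp7 and macrophage Hilpda include 100%. Of the other fatty acid binding proteins, Fabp1, Fabp6 and Fabp9 had no UMI in cardiomyocytes, mesenchymal, endothelial or epicardial cells, macrophages or red cells of either library, and Fabp2, Fabp12 and Pmp2 had at most 8 UMIs in any of these. Crabp1, a related protein that binds retinoic acid, stood at 146 CPM in the mutant and 116 in the control in mesenchymal cells.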

How the data were processed

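Both matrices held counts of UMIs per gene and cell barcode, as deposited. Per the file headers they were written by Cell Ranger 3.0.2. The submitters' processing notes also name Seurat, and the sources used here give no genome build. The control matrix was unfiltered (6794880 barcodes, 542175 with a UMI), and the mutant matrix held 7181 barcodes, each of at least 500 UMIs. The libraries held 48527471 UMIs (mutant) and 49323576 UMIs (control).

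In both, cells with at least 1000 UMIs, 500 genes and at most 20% mitochondrial UMIs were kept. A cell entered a class by its number of distinct markers and their UMIs per 10000 (cardiomyocytes 6 markers and 50 UMIs, epicardial 2 and 4 with a UMI of Upk3b, Upk1b, Krt19, Krt7, Msln or Lrrn4, mesenchymal 3 and 10, endothelial 2 and 4, macrophages 4 and 20, red cells 5 and 1000). Epicardial cells were not also called mesenchymal. On the same scale, ventricular cells had at least 50 UMIs of ventricular markers, and atrial cells had under 20 and 2 atrial markers. Trabecular-type ventricular cells had at least 20 UMIs of trabecular markers and compact-type ones under 5. Cushion cells had 2 cushion markers and no Tcf21, outflow vessel wall cells 2 of their markers, and endocardial cells Npr3 or Nfatc1. Doublets were not removed in the main values. Simulated-doublet scores from 90 neighbours served as an alternative, which left out the top 6% of cells.

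The members, the markers, the lipid lists and the gate thresholds were chosen with earlier results of these data known. From the lipid lists, genes past 1.5-fold were named, up to 4 per list and cell type, and the other list genes in the text were picked with their values known. Ratios and intervals were run on Poisson counts simulated with known ratios, the model that the intervals assume. The simulated counts had no clustering of UMIs in a few cells, so that run cannot show how clustering affects the intervals. With 1 library per genotype there is no p-value. A count of 0 was read as allowing 3 UMIs or cells. Positions come from GENCODE M21, which holds 99.6% of the files' gene IDs. Python 3.11.15, numpy 2.4.6, scipy 1.17.1, pandas 2.3.3, scikit-learn 1.9.0 and matplotlib 3.10.9 were used.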

Additional observations from a re-analysis of the deposited data

Results flagged for a closer look

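Over summed UMIs, Fabp4 stood on opposite sides in the endothelial types. Its log2 ratio of the mutant to the control library was 1.95 in endocardial cells (205 against 45.7 CPM) and -2.45 in other endothelial cells (211 against 1200 CPM). The mutant levels of both types were close, and the control levels were far apart. The difference between the types was not tested, since there was 1 library per genotype, and 3 mutant cells held 149 of the 156 endocardial UMIs. With equal weight per cell the endocardial log2 ratio was -0.51, and with cells thinned to 1000 UMIs it was -0.67, so the types then lay on the same side.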

How the results depend on the processing

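No paired analysis was possible because there was 1 library per genotype. Of the log2 ratios re-measured under other cell filters, gates, weights, doublet filters, denominators and pseudocounts or with thinned cells, 311 kept within counting error, 63 moved beyond it and 2 turned round. These 2 were Fabp4 in endocardial cells, 1.95 over summed UMIs, at -0.51 with equal weight per cell and -0.67 with cells thinned to 1000 UMIs. With equal weight, Fabp3 in cardiomyocytes stood at -0.26, Fabp4 and Fabp5 in endothelial cells at -2.22 and -0.17, and Dbi at -0.44 in cardiomyocytes and -1.53 in mesenchymal cells. With thinned cells, Fabp3 stood at -0.26 in cardiomyocytes and -0.88 in mesenchymal cells, Fabp4 and Fabp5 in endothelial cells at -2.27 and -0.14, and Dbi at -0.35 in cardiomyocytes and -1.53 in mesenchymal cells. A minimum of 2000 UMIs gave -1.02 for Dbi in mesenchymal cells, and 1 more marker per gate -1.28 for Fabp4 in endothelial cells.

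Depth bands, not in that tally, were chosen after seeing the data, and 2 more ratios turned round in them (Fabp3 in the deepest mesenchymal cells, Fabp5 in the shallowest cardiomyocytes). In cells of 1000 to under 3000 UMIs, 3000 to under 6000 UMIs and at least 6000 UMIs, Fabp3 stood at -0.90, -0.41 and -0.20 in cardiomyocytes and at -0.94, -0.50 and 0.38 in mesenchymal cells, Fabp4 in endothelial cells at -1.99, -2.88 and -0.87, and Dbi in mesenchymal cells at -1.52, -0.99 and -0.88. In the first and second band, Fabp5 stood at -0.025 and 0.74 and Dbi at 0.012 and -0.55 in cardiomyocytes, and Fabp5 in endothelial cells at -0.32 and 0.078. In the second and the deepest band, Fabp5 in mesenchymal cells stood at 0.33 and 1.03. The cause of these shifts was not tested.

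Of the lipid list genes, thinned cells gave 1 of 40 measured lower past 1.5-fold in cardiomyocytes. They gave 0 of 10 lower and 0 of 10 higher in endothelial cells and 0 of 10 higher in epicardial cells. The main setting measured 34 and 31 genes in endothelial and epicardial cells, so these 0 counts rest on fewer genes. A minimum of 2000 UMIs gave 1 lower and 2 higher of 34 in mesenchymal, 3 lower of 32 in endothelial and 2 lower of 31 in epicardial cells. The stricter gate gave 1 lower of 34 in mesenchymal, 3 lower and 0 higher of 34 in endothelial and 1 lower of 27 in epicardial cells. Leaving out the top 6% of doublet scores gave 2 lower of 28 in epicardial cells. Shares over all genes under these settings are not given here. Low counts limit Fabp7, and Fabp4 outside endothelium, since most types held fewer than 30 UMIs of them over both libraries. Among these were types with many UMIs. Trabecular-type cardiomyocytes had 1 Fabp4 UMI in 3204207 UMIs of the mutant and 0 in 2861829 of the control.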
